A study of Mus musculus with 14 samples.

Results

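Decorin (Dcn), biglycan (Bgn) and versican (Vcan) are the core proteins of 3 extracellular proteoglycans that carry chondroitin or dermatan sulfate chains. They were followed in mouse corneal stroma and in cells grown out of it. Every probe set annotated with 1 of these symbols was taken, which gave 4 probe sets of the 12422 on the array that were not controls, for 3 of the 7437 genes tested: 1 for Dcn (93534_at), 2 for Bgn (96049_at and 162347_f_at) and 1 for Vcan (100019_at). All 4 passed the filter on low signals, Vcan only through its mean signal in cultured cells. The arrays were Affymetrix MG_U74Av2, each hybridised with target made from 5 µg of total RNA of 1 sample, 14 in all.

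Cells were taken from the stroma of CD-1 mice aged 7 to 8 weeks and grown as 3 kinds of primary culture, with 3 arrays of each. Myofibroblast cultures received DMEM with 10% fetal bovine serum and 10 ng/ml TGF-beta1, fibroblast cultures received DMEM with 10% fetal bovine serum, and keratocyte cultures received DMEM with 1% platelet-poor horse serum. The uncultured groups were stroma dissected from adult mice of the same age and strain (3 arrays) and from CD-1 mice at postnatal day 10 (P10, 2 arrays). No label says whether replicates came from separate animals or cultures, so p-values measure the spread between these arrays, which may be partly technical.

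As background, decorin and biglycan are small proteoglycans built from leucine-rich repeats. Decorin binds fibrillar collagen and helps set the width and spacing of fibrils, on which the transparency of the cornea depends. Biglycan, its closest relative, also binds collagen, and both bind TGF-beta. Versican is a large proteoglycan that binds hyaluronan and is known from developing and healing tissue. In the healthy corneal stroma decorin carries most of the dermatan sulfate, whereas lumican and keratocan carry keratan sulfate.

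In the mouse assembly GRCm38.p6 RefSeq places Dcn at chr10:97479500-97518163, Bgn at chrX:73483601-73495936 and Vcan at chr13:89655309-89743027. All are protein-coding. The 250 bases before a RefSeq transcript start are shown for Bgn and Vcan, since no such stretch was at hand for Dcn. Both had their highest mean signal in the myofibroblast cultures, although for neither did the step from the next highest group pass in an unpaired test. The Bgn stretch is chrX:73483351-73483600 on the plus strand and the Vcan stretch is chr13:89742513-89742762 on the minus strand, ahead of a start that lies inside the span of the gene. Both are written 5′ to 3′ with matches to the GC box, a binding sequence of Sp1-type factors, in capitals.
Bgn: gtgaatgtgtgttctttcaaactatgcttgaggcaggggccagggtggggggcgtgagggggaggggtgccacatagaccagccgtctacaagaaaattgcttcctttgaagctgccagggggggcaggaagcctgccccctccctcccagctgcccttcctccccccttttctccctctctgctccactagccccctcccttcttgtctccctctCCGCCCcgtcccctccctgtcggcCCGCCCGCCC
Vcan: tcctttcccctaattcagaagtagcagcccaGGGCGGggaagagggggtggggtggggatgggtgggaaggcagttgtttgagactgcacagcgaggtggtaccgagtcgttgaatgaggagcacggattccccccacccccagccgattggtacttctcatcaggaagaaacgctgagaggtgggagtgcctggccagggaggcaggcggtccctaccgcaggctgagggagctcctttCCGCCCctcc
The GC box GGGCGG, searched on both strands, matched Bgn at -34, -10 and -6 and Vcan at -219 and -10, counted from the start to the first base of the match, and the Bgn matches at -10 and -6 overlap. Of 32851 mouse promoter stretches of this length 32.7% held it. The TATA box TATAAA (12.4% of stretches), the AP-1 sequence TGANTCA (6.75%) and the Smad-type sequence CAGACA (17.1%) gave no match in either. The stretches held 64.4% G and C for Bgn and 62.4% for Vcan, against a median of 52.4%. These matches describe the letters only.

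Signals are probe set intensities on a linear scale. The array carries 19 control probe sets for foreign transcripts outside the added spikes, and 95% of their signals lay below 137.7, which is used as the background level. The lowest signal in the table is exactly 1, called the floor. The brightest probe set of an array that was not a control ran from 5943 to 7725. A measure of RNA integrity, the signal at the 3′ end of Gapdh over that at its 5′ end, was 0.756 to 0.859 on the 9 culture arrays and 0.896 to 2.12 on the 5 tissue arrays, with the highest on adult replicate 1. The same ratio for Actb was 1.06 to 1.20 on the culture arrays and 1.44 to 4.05 on the tissue arrays. The mean signal of the added spikes was 1022 to 1605 on the culture arrays and 1621 to 2750 on the tissue arrays. The part of RNA quality and of scaling in the differences between culture and tissue was not tested. Markers of neighbouring tissue differed as well. The summed signal of 15 corneal epithelium markers was 462 to 837 on the culture arrays and 20775 to 24306 on the tissue arrays, and Epcam, Col17a1 and Itgb4 were at the floor on every culture array. The mean of 14 of the 15 was within background in myofibroblast and fibroblast cultures and of 13 in keratocyte cultures, against 1 in adult and 2 in P10 stroma. In bulk RNA, fewer cells of a type and less RNA per cell cannot be told apart.

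Each culture was set against adult stroma, the tissue its cells were taken from. Signals of Dcn and Bgn were higher in all 3 cultures than in adult stroma, and as ratios of mean signals the myofibroblast cultures stood at 1.35-fold for Dcn and 7.46-fold for Bgn (96049_at). The Vcan signal averaged 223 in myofibroblast cultures, with 2 of 3 arrays above background, and was at the lowest value, 1, on every adult array. Its direction from tissue to culture was set by the filter, which it passed only through its culture means. The difference passed the test in myofibroblast cultures. It passed in keratocyte cultures too, but with both means within background, and did not pass in fibroblast cultures.

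Decorin had a high signal in all 5 groups. Its signal was 5196, 4498 and 4449 on the myofibroblast arrays, 5108, 4713 and 5587 on the fibroblast arrays, 5419, 4806 and 5630 on the keratocyte arrays, 3552, 3173 and 3748 on the adult arrays and 4570 and 5172 on the P10 arrays. Every adult array lay below every other array, and the other 4 groups overlapped. The share of all probe sets whose arrays separate between groups in such a way was not counted, here or below. Against adult stroma, Dcn rose by 0.43 ± 0.11 on the log2 scale (SE, adjusted p = 0.00981) in myofibroblast cultures, by 0.55 ± 0.11 (adjusted p = 0.00194) in fibroblast cultures and by 0.60 ± 0.11 (adjusted p = 0.00113) in keratocyte cultures. The first of these was 0.36 with an adjusted p of 0.0525 without myofibroblast replicate 1. Between the cultures Dcn did not pass, with a difference of -0.12 (95% interval -0.37 to 0.12) for myofibroblast minus fibroblast, -0.16 (-0.41 to 0.08) for myofibroblast minus keratocyte and -0.04 (-0.29 to 0.20) for fibroblast minus keratocyte. The intervals are not adjusted for the number of comparisons. Dcn read 74.1%, 75.2%, 85.0%, 48.9% and 70.6% of the array's brightest probe set on average in myofibroblast, fibroblast and keratocyte cultures and in adult and P10 stroma. The part of the upper end of the scale in the small differences of Dcn was not tested.

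The order of mean Dcn signals was keratocyte culture (5285 ± 428), fibroblast culture (5136 ± 438), P10 stroma (4871 ± 426), myofibroblast culture (4714 ± 418) and adult stroma (3491 ± 292; SD, n = 3 each, 2 for P10). No neighbours among the leading 4 differed beyond their spread, and the step to adult stroma did. The culture means were at 0.968 to 1.085 times the mean signal of P10 stroma, with adjusted p = 0.824, 0.738 and 0.621 for myofibroblast, fibroblast and keratocyte cultures minus P10.

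Biglycan separated culture from tissue on both probe sets. Probe set 96049_at gave 6590, 5943 and 5681 in myofibroblast cultures, 5000, 4934 and 5067 in fibroblast cultures, 4341, 5003 and 4987 in keratocyte cultures, 762, 1032 and 647 in adult stroma and 1981 and 1915 in P10 stroma. Every culture array was above every tissue array, every myofibroblast array above every other culture array, and every P10 array above every adult array. By limma the step from the other cultures to myofibroblast cultures did not pass on this probe set (adjusted p = 0.207 from keratocyte and 0.719 from fibroblast cultures). Against adult stroma the log2 difference was 2.90 ± 0.15 (adjusted p = 2.28e-09) for myofibroblast, 2.62 ± 0.15 (adjusted p = 6.68e-09) for fibroblast and 2.55 ± 0.15 (SE, adjusted p = 9.58e-09) for keratocyte cultures. Against P10 stroma the same cultures were higher by 1.63 ± 0.16, 1.35 ± 0.16 and 1.28 ± 0.16 (adjusted p = 5.2e-06, 3.48e-05 and 6.54e-05).

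**Figure D1:**
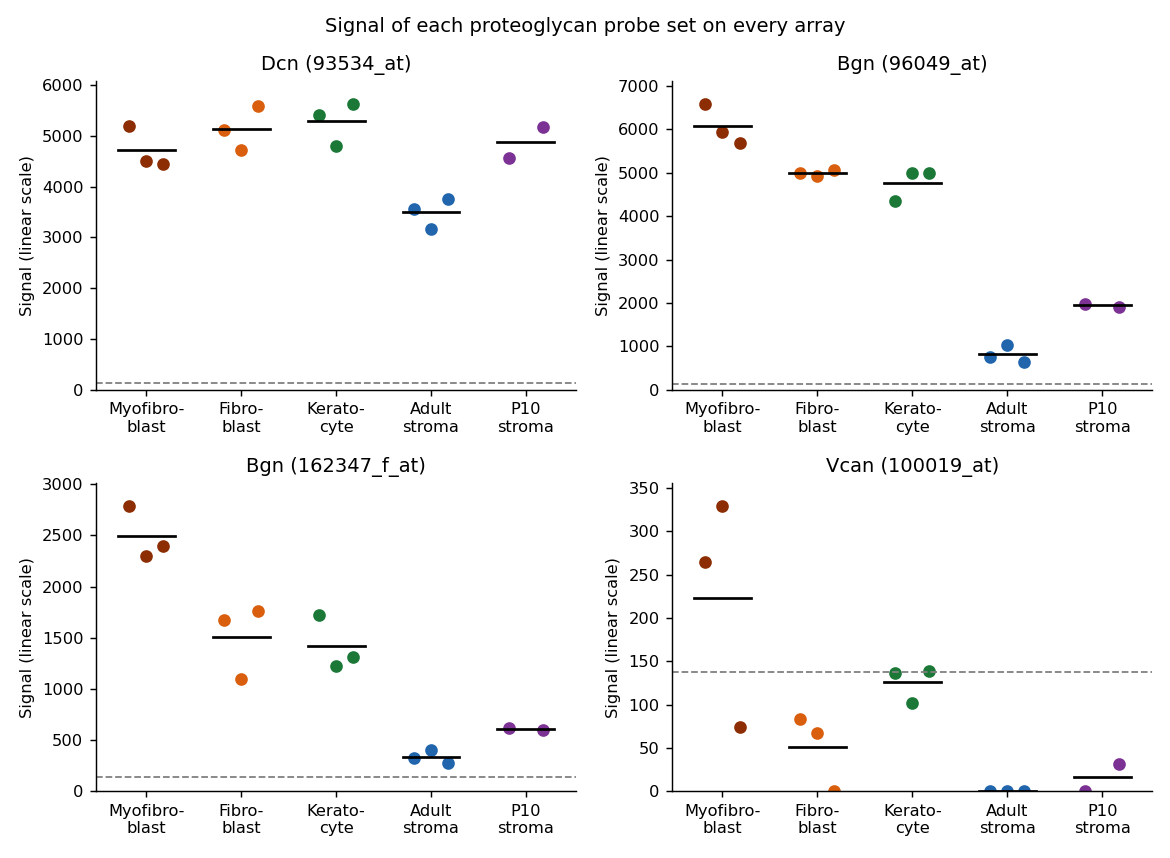
Signal (linear scale) of the 4 probe sets on every array, by group, with a bar at the group mean and a dashed line at the background level of 137.7. Adult stroma has the lowest mean in each panel, the culture arrays of Bgn stand above all tissue arrays, and Vcan passes the background level on 2 myofibroblast arrays and 1 keratocyte array.

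The other Bgn probe set, 162347_f_at, read lower signals with the same order of groups. In Affymetrix naming the letter f marks a set in which some probes match a family of sequences, so signal from a related transcript cannot be told apart from that of Bgn. It gave 2791, 2303 and 2400 in myofibroblast cultures, 1676, 1096 and 1766 in fibroblast cultures, 1720, 1222 and 1317 in keratocyte cultures, 323, 407 and 281 in adult stroma and 620 and 599 in P10 stroma. Here too every myofibroblast array was above every other array and every culture array above every tissue array. The log2 differences from adult stroma were 2.84 ± 0.20 for myofibroblast, 2.10 ± 0.20 for fibroblast and 2.02 ± 0.20 for keratocyte cultures (SE, adjusted p = 7.69e-08, 1.86e-06 and 2.88e-06).

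The probe sets parted on the size of the step between cultures. Myofibroblast minus keratocyte culture was 0.82 ± 0.20 on 162347_f_at (adjusted p = 0.0255) and 0.35 ± 0.15 on 96049_at (adjusted p = 0.207), where every myofibroblast array was also higher. The call on 162347_f_at was lost without keratocyte replicate 2 (0.078) or 3 (0.118) and without any of the myofibroblast arrays (0.0519 to 0.0829), and 96049_at passed after quantile normalization, at 0.41 with an adjusted p of 0.0299. Probe set 96049_at was near the top of the scale in culture. Its signal was 94.4%, 100% and 92.0% of the array's brightest probe set on the myofibroblast arrays, 70.0%, 77.0% and 73.2% on the fibroblast arrays and 71.7%, 80.9% and 77.9% on the keratocyte arrays. On myofibroblast replicate 2 it was itself the brightest. Its ratio to 162347_f_at on the same array was 2.36, 2.58 and 2.37 on myofibroblast arrays, 2.98, 4.50 and 2.87 on fibroblast arrays, 2.52, 4.09 and 3.79 on keratocyte arrays, 2.36, 2.54 and 2.30 on adult arrays and 3.19 on both P10 arrays. The mean ratio was 2.44 in myofibroblast, 3.45 in fibroblast and 3.47 in keratocyte cultures, 2.40 in adult stroma and 3.19 in P10 stroma. The part of the scale limit in the smaller step was not tested.

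Set beside each other on the same array, the signals of Bgn and Dcn changed unequally. The log2 ratio of 96049_at over Dcn was 0.34, 0.40 and 0.35 on the myofibroblast arrays, -0.03, 0.07 and -0.14 on the fibroblast arrays, -0.32, 0.06 and -0.18 on the keratocyte arrays, -2.22, -1.62 and -2.53 on the adult arrays and -1.21 and -1.43 on the P10 arrays. The cultures did not overlap with tissue and the P10 arrays did not overlap with the adult arrays. Only changes of this ratio between arrays carry meaning, since different probe sets hybridise with different strength.

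**Figure D2:**
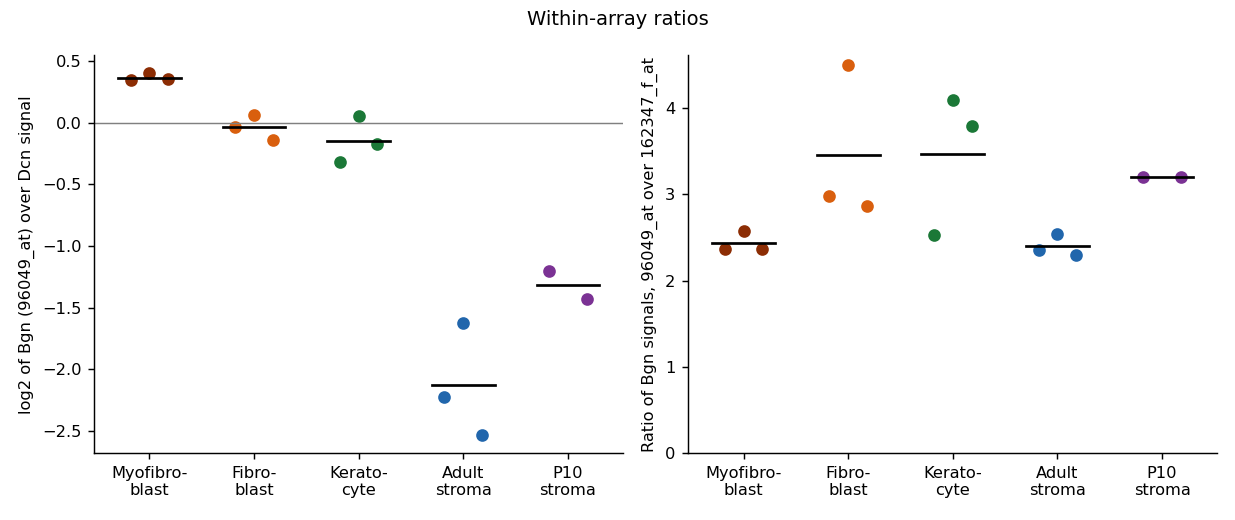
Left, log2 of the Bgn (96049_at) signal over the Dcn signal on each array; right, the linear ratio of the Bgn probe sets, 96049_at over 162347_f_at. Points are arrays and bars are group means. The left ratio is highest in myofibroblast cultures (0.37 on average) and lowest in adult stroma (-2.13). The right ratio averages 2.44 and 2.40 in those groups, 3.45 in fibroblast and 3.47 in keratocyte cultures, and 3.19 in P10 stroma.

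Versican was measured close to the limit of detection. Its signal was 265, 330 and 74.4 in myofibroblast cultures, 83.1, 67.8 and 1 in fibroblast cultures, 136, 102 and 139 in keratocyte cultures, 1 on all 3 adult arrays, and 1 and 31.2 in P10 stroma. It was above the background level on 2 of 3 myofibroblast arrays, 1 of 3 keratocyte arrays and no fibroblast, adult or P10 array. Every myofibroblast and every keratocyte array lay above every tissue array. The difference from adult stroma passed in myofibroblast (adjusted p = 0.00037) and keratocyte cultures (adjusted p = 0.00148), and not in fibroblast cultures (adjusted p = 0.0582, 0.0023 without fibroblast replicate 3, which was at the floor). Vcan passed the filter only through its culture means. The direction of its differences from adult and P10 stroma was therefore set by the filter. All adult values were at the floor, so the adult arrays gave no measured spread. With the background level taken for adult stroma, Vcan was 1.35-fold higher in myofibroblast cultures, from the mean of log2 signals. That is not a lower bound, since the highest signal of the control probe sets behind this level was 256.8. The value also rests on single arrays. It was 1.14-fold without replicate 1, 1.02-fold without replicate 2 and 2.15-fold without replicate 3, an alternative chosen after seeing the data. No fold is given for the other cultures, whose means were within background. The order of means was myofibroblast (223 ± 133), keratocyte (126 ± 20.4) and fibroblast culture (50.6 ± 43.7), then P10 (16.1 ± 21.3) and adult stroma (1 on each array), and no neighbours in this order passed. Against P10 stroma, keratocyte and myofibroblast cultures passed (adjusted p = 0.0322 and 0.00748), and both calls were lost without P10 replicate 1 (0.311 and 0.122). The keratocyte call against P10 was also lost without any single keratocyte array (0.0516 to 0.0902). Fibroblast culture minus P10 did not pass (adjusted p = 0.42).

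Of the 4 probe sets, 4 were called higher than in adult stroma in myofibroblast cultures, 3 in fibroblast cultures and 4 in keratocyte cultures. Among all 10370 probe sets tested, 17.5%, 18.4% and 21.8% were called higher in the same comparisons. Against P10 stroma 3, 2 and 3 of 4 were higher in myofibroblast, fibroblast and keratocyte cultures, where 7.84%, 7.97% and 8.84% of all probe sets were called higher. The comparisons of the 3 cultures with adult stroma share its arrays, and so do those with P10. Vcan passed the filter only through its culture means, so its direction from tissue to culture was set by the filter. Both Bgn probe sets stand for 1 gene, so these counts are not of separate genes. Centring the arrays changed no direction here, and over all probe sets keratocyte culture minus adult stroma had a median of 0.12 before it and -0.05 after, on the log2 scale. In the comparisons with adult stroma the epithelial markers moved the other way, with 15 of 15 lower in each culture. Of 10 retina markers 10 were lower in myofibroblast and 9 in fibroblast and in keratocyte cultures, and of 9 lens markers 6, 5 and 4 were lower and 1 higher in each. Most contractile markers were higher (5, 5 and 6 of 8 in the same order), with Acta2 at 3193 ± 142 in keratocyte cultures and 56 ± 14.3 in adult stroma. Their sums were 13998 to 15111 in keratocyte cultures and 1497 to 2556 in adult stroma. Cnn1 went the other way by limma, at 778 ± 243 in myofibroblast and 723 ± 82.7 in keratocyte cultures against 1302 ± 476 in adult stroma (adjusted p = 0.0496 and 0.0369). Macrophage and leukocyte markers were higher in 3 of 14 in myofibroblast (4 lower), 7 in fibroblast (1 lower) and 7 in keratocyte cultures, where they summed to 3720 to 4663, against 1525 to 2038 in adult stroma. Pigment cell markers were higher in keratocyte cultures (4 of 5, summing to 1907 to 2263, against 699 to 828 in adult stroma), with 1 of 5 lower in each of the other cultures. Endothelium markers Eng and Flt1 were higher in each culture, Cdh5 in keratocyte and fibroblast and Tie1 in myofibroblast cultures, where Kdr was lower. Keratocyte marker Tkt was lower in each culture, Kera and Aldh3a1 in fibroblast and myofibroblast and Ptgds in myofibroblast cultures. Ogn was higher in keratocyte and fibroblast, Ptgds and Cd34 in keratocyte and Lum in myofibroblast cultures. Cartilage marker Matn1 was lower in each culture and Col9a1 higher in myofibroblast cultures. The part of these in the rise of the proteoglycan signals was not tested.

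**Figure D3:**
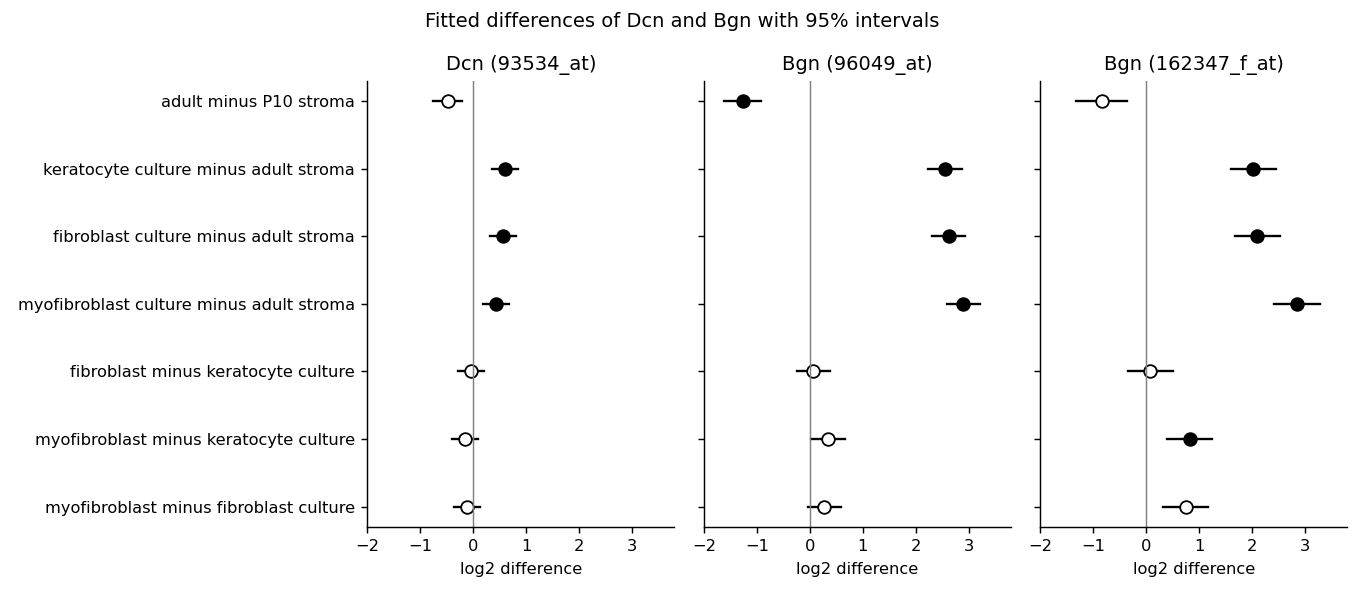
Fitted log2 differences of Dcn and both Bgn probe sets in 7 comparisons, each with its 95% interval; filled points passed at an adjusted p below 0.05 and open points did not. All differences of culture from adult stroma lie above 0, from 0.43 for Dcn to 2.90 for Bgn, and in this unpaired fit the filled point between cultures is 0.82 for Bgn 162347_f_at, myofibroblast minus keratocyte, a call lost without any of 5 single arrays.

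Between adult and P10 stroma the comparison is one of age in uncultured tissue. Bgn fell by 1.27 ± 0.16 on the log2 scale in the adult on 96049_at (SE, adjusted p = 0.000628), at 814 ± 198 in adult and 1948 ± 46.9 in P10 stroma (SD, n = 3 and 2). On 162347_f_at the adult signal was 337 ± 64 and the P10 signal 610 ± 14.7, a difference of -0.84 ± 0.22 (adjusted p = 0.0542). Dcn differed by -0.48 ± 0.13, also with an adjusted p of 0.0542. Both missed the threshold. On both no adult array reached a P10 array, a separation whose share over all probe sets was not counted. After quantile normalization they had adjusted p = 0.0168 for Bgn 162347_f_at and 0.0146 for Dcn. With single arrays left out, the adjusted p ran from 0.0252 to 0.317 for Bgn 162347_f_at and from 0.0427 to 0.491 for Dcn. Vcan did not pass (adjusted p = 0.706), with all signals within background. So 1 of 4 probe sets was lower in the adult, where 3.26% of all probe sets were. Over all probe sets the median log2 difference was -0.12, and 0.05 once each array was centred on its median.

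Markers of other cells moved in the same comparison. Of 5 pigment cell markers 3 fell in the adult, with summed signals of 699 to 828 in adult and 1713 to 5026 in P10 stroma. Of 9 lens markers 1 fell, and they summed to 6028 to 9026 in adult and 8058 to 12594 in P10 stroma. The lens marker that fell was Crygd, at 187 ± 78.2 in adult and 918 ± 140 in P10 stroma, and also at 754 ± 89.9 in keratocyte cultures. Among 10 retina markers, summing to 1458 to 4716 in adult and 2868 to 4394 in P10 stroma, Pdc fell (adjusted p = 0.0049). It was at 137 ± 44.6 against 420 ± 145, and no other retina marker passed by limma. The 8 myofibroblast and smooth muscle markers, 4 of which fell and 1 of which rose, summed to 1497 to 2556 in adult and 2170 to 3142 in P10 stroma. The part of these in the lower Bgn signal was not tested. Keratocyte markers other than Dcn summed to 14562 to 15252 in adult and 16594.5 to 16870 in P10 stroma, and 0 of 8 passed by limma (2 were lower at an unadjusted p below 0.05). Aldh3a1 (6771 in adult and 6726 in P10 stroma) and Tkt (5006 and 4872) made up most of these sums. Means of Lum (1178 and 2368), Kera (303 and 557) and Ogn (193 and 436) were lower in the adult. So were those of Ptgds (536 and 896) and Cd34 (43.2 and 78.3, within background), whereas Aldh1a1 was at 915 and 799. The part of these markers in the lower Bgn signal was not tested either.

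Myofibroblast cultures were compared with fibroblast cultures, which differ in the added TGF-beta1. By limma 0 of 4 probe sets passed when the arrays were treated as unpaired, with 2 higher at an unadjusted p below 0.05, and 1.07% of all probe sets were called in either direction. Replicate numbers were taken as pairs for these cultures from the data themselves, since arrays of the same number deviated together from their group means. Number 2 of the keratocyte cultures also deviated with number 2 of the fibroblast (correlation 0.572) and myofibroblast cultures (0.409). For numbers 1 and 3 the correlations with keratocyte cultures were 0.197 and 0.0694 in fibroblast and 0.221 and 0.0743 in myofibroblast cultures. The part of effects on whole arrays in the pairing was not tested. With the number as a block within these 2 groups, Vcan passed (adjusted p = 0.00388) and so did Bgn 162347_f_at (adjusted p = 0.0443). With the number as a block over all 5 groups neither did (adjusted p = 0.0844 and 0.0917), and unpaired they had 0.213 and 0.126.

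Within pairs the signals read as follows. Vcan was at 265 in myofibroblast and 83.1 in fibroblast culture for number 1, at 330 and 67.8 for number 2, and at 74.4 and 1 for number 3. It was higher with TGF-beta1 in 3 of 3 pairs, although the values of number 3 were both within background. Bgn 162347_f_at was 1.67, 2.10 and 1.36 times as high in myofibroblast as in fibroblast culture in pairs 1, 2 and 3, a log2 difference of 0.74 ± 0.20 (unpaired SE). Bgn 96049_at was 1.32, 1.20 and 1.12 times as high, and its difference of 0.28 (95% interval -0.04 to 0.59) did not pass in any fit (adjusted p = 0.719 unpaired and 0.533 with the block within these 2 groups). Dcn was 1.02, 0.954 and 0.796 times as high, lower in 2 of 3 pairs (adjusted p = 0.916 unpaired and 0.772 with the same block).

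**Figure D4:**
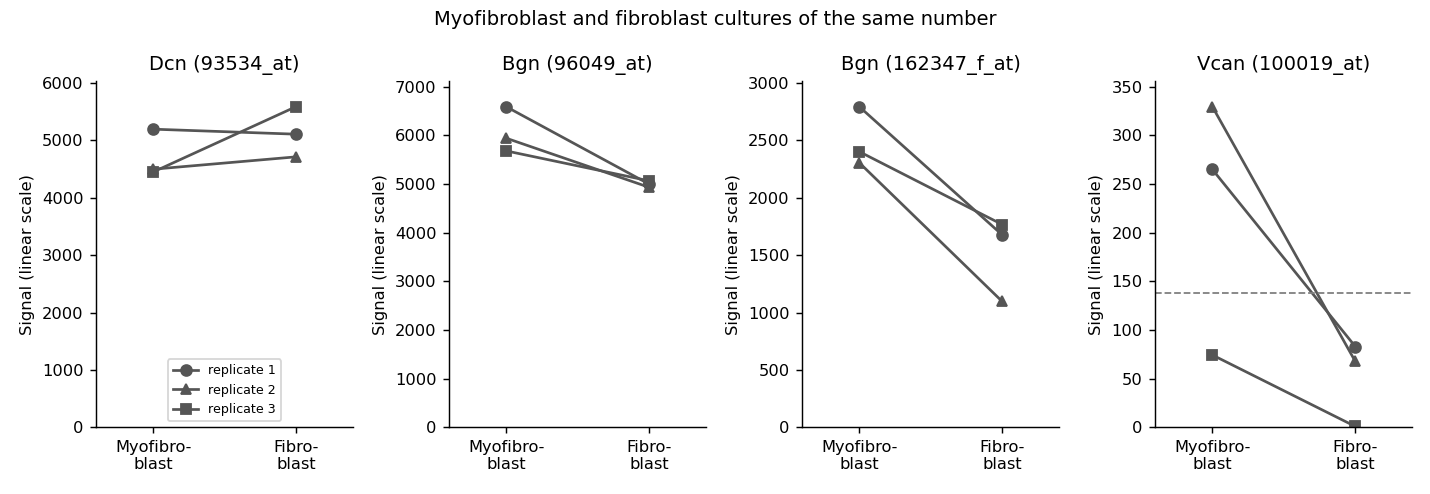
Signal (linear scale) of each probe set in myofibroblast and fibroblast cultures, with lines joining arrays of the same replicate number; the dashed line in the Vcan panel is the background level of 137.7. Both Bgn probe sets and Vcan are higher in myofibroblast culture in 3 of 3 pairs, and Dcn in 1 of 3.

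Fibroblast cultures were compared with keratocyte cultures, which received another type and dose of serum. By limma 0 of 4 probe sets passed, where 1.37% of all probe sets did, and 1 was lower at an unadjusted p below 0.05. That was Vcan, at 83.1, 67.8 and 1 in fibroblast and 136, 102 and 139 in keratocyte cultures (adjusted p = 0.502). All fibroblast arrays were below all keratocyte arrays, and all but 1 of these 6 signals were within background. Bgn differed by 0.07 on 96049_at (95% interval -0.25 to 0.38) and by 0.08 on 162347_f_at (-0.36 to 0.51). By limma the pigment cell markers Dct, Tyrp1, Tyr and Pmel were lower in fibroblast cultures (adjusted p = 0.00235, 0.0285, 0.0194 and 0.0364), and Mitf did not pass. Summed pigment cell markers were 410 to 636 in fibroblast and 1907 to 2263 in keratocyte cultures. Summed macrophage and leukocyte markers were 1940 to 3470 and 3720 to 4663 in the same order. For myofibroblast minus keratocyte culture, 1 of 4 probe sets was higher, the Bgn set given above, where 1.1% of all probe sets were. The median over all probe sets was -0.13 in that comparison and 0.04 once arrays were centred. Vcan did not pass there (adjusted p = 0.669). Macrophage and leukocyte markers differed in the same comparison, with 7 of 14 lower in myofibroblast cultures and summed signals of 1747 to 2625 in myofibroblast and 3720 to 4663 in keratocyte cultures. Pigment cell markers were lower as well (4 of 5), summing to 464 to 588 in myofibroblast and 1907 to 2263 in keratocyte cultures. The part of these markers in either comparison was not tested.

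Summed contractile markers were highest in the keratocyte cultures. By limma 0 of 8 passed in fibroblast minus keratocyte culture (4 were lower at an unadjusted p below 0.05), and 1 of 8 was lower in myofibroblast than in keratocyte cultures. The 8 myofibroblast and smooth muscle markers summed to 11798 to 13217 in myofibroblast, 6533 to 12878 in fibroblast and 13998 to 15111 in keratocyte cultures. The 8 keratocyte markers summed to 2874 to 4649, 3644 to 11698 and 4126 to 14299 in the same order, overlapping between the groups. By limma Aldh3a1, Tkt and Ptgds were lower in myofibroblast than in keratocyte cultures (adjusted p = 0.00729, 0.00137 and 0.000349). Ptgds was lower in fibroblast than in keratocyte cultures (adjusted p = 0.00675), and Aldh3a1 lower in myofibroblast than in fibroblast cultures (adjusted p = 0.035). The other keratocyte markers did not pass between cultures. The culture names are used here as the labels give them.

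Genes that build, bind and cut these proteoglycans were read from 6 lists written from general knowledge. The chain synthesis enzymes make the sugar chains that core proteins carry. Of 30 such genes 12 were matched and 11 tested, and against adult stroma 4 rose and 2 fell in keratocyte cultures, 3 rose and 2 fell in fibroblast cultures and 3 rose and 2 fell in myofibroblast cultures. Of all probe sets 21.8%, 18.4% and 17.5% were called higher in those comparisons, and the counts of each list below are read against these shares. Their median log2 difference in keratocyte cultures was 0.21, against 0.12 over all probe sets. Ugdh, which makes the glucuronic acid precursor of the chains, was at 832 ± 126 in keratocyte cultures and 401 ± 57.6 in adult stroma (log2 1.02, adjusted p = 0.0041). Bpnt2, a Golgi phosphatase that clears a by-product of sulfation, was at 465 ± 40.9 and 241 ± 49.3 (log2 0.92, adjusted p = 0.008). Chst3, which adds sulfate to chondroitin, fell to 83 ± 10.9, against 178 ± 28.6 (adjusted p = 0.000416), a level within background in culture. By limma 0 of 11 passed in the comparisons between cultures, with 0 also at an unadjusted p below 0.05, and 0 of 11 between adult and P10 stroma (1 higher and 2 lower unadjusted).

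Most other core proteins that carry these chains did not pass. Of 8 tested, 2 were called higher in myofibroblast, 3 in fibroblast and 2 in keratocyte cultures than in adult stroma, near the share of all probe sets (17.5%, 18.4% and 21.8%). The 2 in keratocyte cultures were Srgn (serglycin, of blood cell granules) at 131 ± 25.7 and 19.5 ± 4.47 and Thbd (thrombomodulin) at 181 ± 62.4 and 16 ± 10.3 (adjusted p = 4.96e-05 and 0.000548). Their median log2 difference was 0.16. The mean of Srgn was within background in all 5 groups. Among 4 keratan sulfate and related leucine-rich proteoglycans 2 rose in keratocyte cultures, with a median of 1.71, and 2 rose and 1 fell in each of the other cultures. The gene that fell was Kera, keratocan, at 8.96 ± 4.46 in myofibroblast cultures and 44.7 ± 41.5 in fibroblast cultures against 303 ± 112 in adult stroma (adjusted p = 0.0012 and 0.0106), with both culture means within background. Fmod, fibromodulin, rose in all cultures, for example to 2557 ± 198 in keratocyte cultures against 229 ± 44.2 in adult stroma (adjusted p = 2.42e-07). It was lower in adult stroma than in P10 stroma, where it averaged 691 ± 140 (adjusted p = 0.00945, 0.158 without P10 replicate 1), the 1 of 4 that passed there.

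Of 14 partners of versican and hyaluronan, in keratocyte cultures 5 were higher and 1 lower than in adult stroma, with a median of 0.41, and 5 were higher and 1 lower in myofibroblast cultures and 4 higher in fibroblast cultures. Ptx3, which cross-links hyaluronan matrices, was at 966 ± 126 in keratocyte cultures and 39.4 ± 25.7 in adult stroma. Tnc, tenascin-C, which binds the lectin domain of versican, was at 1754 ± 89.5 and 110 ± 16.6. Fbln2, fibulin-2, another ligand of that domain, was at 1157 ± 224 and 114 ± 19.7. All 3 passed (adjusted p = 2.72e-07, 9.95e-08 and 4.78e-05), and all 3 adult levels were within background. Cd44, the main hyaluronan receptor, also rose in keratocyte cultures, at 479 ± 29.1 against 185 ± 117 (adjusted p = 0.00643). Has2, which makes hyaluronan, passed in myofibroblast cultures at 165 ± 84.4 against 36.4 ± 29.6 in adult stroma (adjusted p = 0.0116, 0.0526 without adult replicate 2) and was at 102 ± 8.65 in keratocyte cultures (adjusted p = 0.053). Ptx3 parted the cultures, at 89.4 ± 36.6 in myofibroblast and 931 ± 209 in fibroblast cultures (adjusted p = 0.000251), the only 1 of 14 that passed there unpaired, and Ptx3 was also lower than in keratocyte cultures. With the block within these 2 groups 1 rose and 1 fell.

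Among 22 ligands and receptors of decorin and biglycan, in keratocyte cultures 13 rose and 0 fell by limma (2 were lower at an unadjusted p below 0.05), with a median of 0.84, and 9 rose in each of the other cultures, with 1 lower in myofibroblast cultures. Of all probe sets 21.8% were called higher in keratocyte, 18.4% in fibroblast and 17.5% in myofibroblast cultures. Ccn2, a growth factor of scars that binds decorin, was at 3730 ± 173 in keratocyte cultures and 56.2 ± 46.5 in adult stroma. Ccn4, which binds decorin and biglycan, was at 312 ± 44.8 and 44 ± 15.7, and Col6a3, a chain of the collagen VI that both bind, at 2400 ± 1168 and 501 ± 230 (adjusted p = 2.48e-08, 4.18e-06 and 0.00135). With TGF-beta1 Ccn4 reached 1279 ± 368, against 289 ± 74.5 in fibroblast cultures (log2 2.07, adjusted p = 0.000844, 0.0893 with only these groups in the fit), and no other of the 22 passed unpaired, whereas 3 rose with the block within these 2 groups. Against P10, 10 of 22 fell in the adult and 0 rose by limma (0 at an unadjusted p below 0.05), with a median of -0.87 where that of all probe sets was -0.12 and 3.26% of them fell. Col1a2, a chain of collagen I, fell to 1610 ± 315, against 4995 ± 158 at P10 (adjusted p = 0.000202). Col6a3 fell to 501 ± 230 in the adult, against 1824 ± 326 (adjusted p = 0.0411), and Ccn2 to 56.2 ± 46.5, against 216 ± 21.4 (adjusted p = 0.0213). The last 2 calls were lost with only these groups in the fit (0.066 and 0.115) and without either P10 array (0.188 to 0.312 for Col6a3 and 0.136 to 0.195 for Ccn2).

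Of 11 proteases that process or cut core proteins 7 rose in keratocyte cultures, with 0 lower by limma (0 at an unadjusted p below 0.05) and a median of 1.77. In myofibroblast and in fibroblast cultures 6 rose and 1 fell, where 17.5% and 18.4% of all probe sets were called higher (21.8% in keratocyte cultures). Mmp3, stromelysin, which can cut decorin, was at 2611 ± 256 in keratocyte cultures and 103 ± 42.3 in adult stroma. Htra1, a serine protease that degrades decorin and biglycan, was at 2668 ± 316 and 362 ± 47.5, and Mmp13, a collagenase, at 132 ± 23.2 and 5.48 ± 2.96 (adjusted p = 3.31e-06, 5.49e-08 and 0.000466), with both means of Mmp13 within background. Mmp3 was lower with TGF-beta1, at 229 ± 184 in myofibroblast and 1427 ± 608 in fibroblast cultures (adjusted p = 0.00751, 0.279 with only these groups in the fit). That was the 1 of 11 that passed unpaired, and with the block 1 rose and 2 fell. Bmp1, which removes the propeptides of decorin and biglycan, did not pass, at 441 ± 24.8 in keratocyte cultures and 347 ± 96.8 in adult stroma (adjusted p = 0.162). Htra1 also fell in the adult against P10, 362 ± 47.5 against 945 ± 7.49 (adjusted p = 0.00241), the 1 of 11 that passed.

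**Figure D5:**
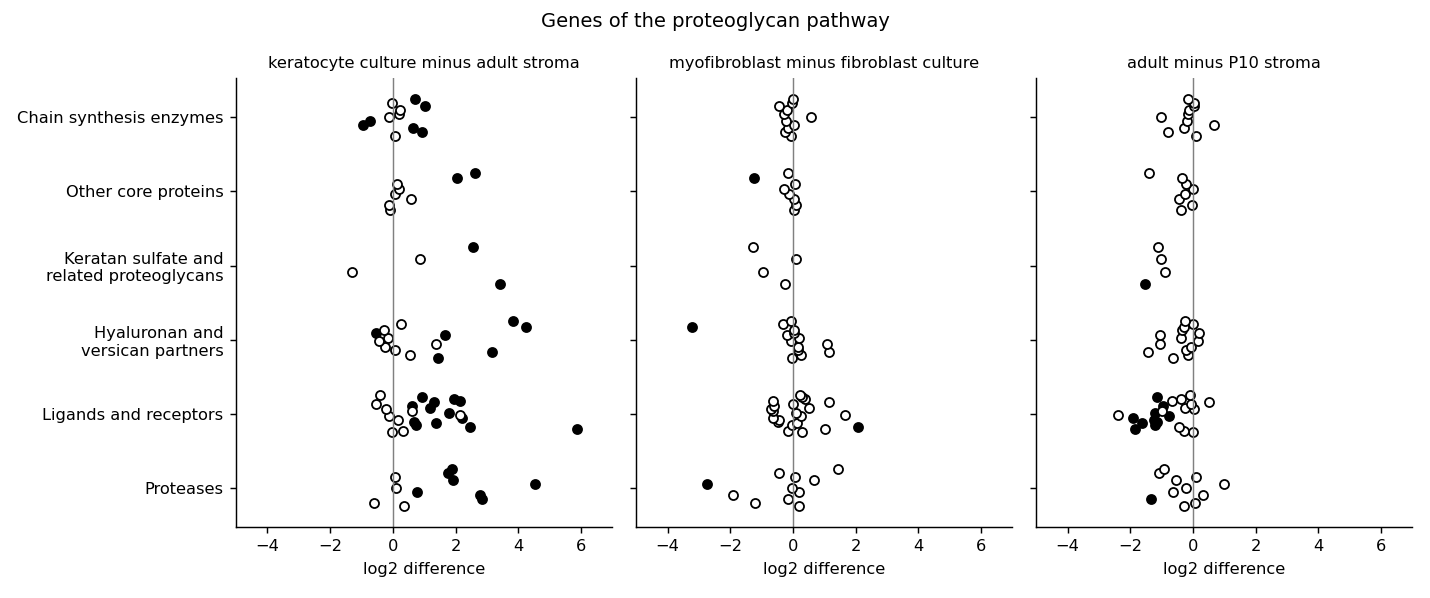
Log2 differences of the tested genes of 6 pathway lists in 3 comparisons, 1 point a gene, filled where the adjusted p was below 0.05. In keratocyte culture minus adult stroma filled points lie mostly above 0 (13 of 22 ligands and receptors, 7 of 11 proteases), few are filled in myofibroblast minus fibroblast culture, and all filled points lie below 0 in adult minus P10 stroma.

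The genes with the most similar pattern over the 14 arrays were found by Pearson correlation of log2 signals among 5415 genes. For Dcn these were Pfn2 (r = 0.946), Cxcl1 (0.939), Sox4 (0.936), Hgsnat (0.922) and Sec61a2 (0.921), which like Dcn had their lowest mean in adult stroma. For Bgn 96049_at they were Tpm1 (0.987), Klf6 (0.984), Lgals1 (0.983), Serpinh1 (0.982) and Igfbp2 (0.982), and for 162347_f_at Gpx7 (0.98), Rap1gds1 (0.977), Tmsb10 (0.977), Ikbip (0.976) and Rab31 (0.976), so that the probe sets of 1 gene shared none of their 5. For Vcan they were Ncam1 (0.961), Ltbp2 (0.93), Hbegf (0.919), Timp3 (0.915) and Pkd1 (0.914). Ncam1 had means of 661 in myofibroblast, 251 in fibroblast and 557 in keratocyte cultures and 92.5 in adult and 216 in P10 stroma, the same order of the cultures as Vcan. These correlations describe arrays that fall into tissue and culture clusters, and are given with no test.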

How the data were processed

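RNA of 14 samples was measured on 1 array each. Per the labels, the authors computed intensity values with Microarray Suite 5.0 and scaled them to a target of 150. The deposited intensities had trimmed means (2% off each end) of 164 to 225, so their final scaling is not settled. No source used here says how values at the floor arose. Of 12488 probe sets 66 controls were left out. Those with a group mean of at least 50 somewhere (10370) entered 1 limma fit (version 3.58.1, R 4.3.3) of log2(signal + 16) with 5 group means and a variance trend. Tests were two-sided, with Benjamini-Hochberg adjustment over these probe sets in each of 10 comparisons, at 0.05.

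Platform symbols named 10833 probe sets, 396 had several and 1193 none. A listed gene was read from its brightest kept probe set on average. Named list genes were up to 3 per list with the largest called difference, and others were chosen after their values were seen. The members and lists were chosen with earlier results of these data known. Within-group correlations were 0.91 to 0.987, no columns were identical, and the number of arrays limits precision. Replicate numbers were taken as pairs where each same-number correlation of deviations exceeded 0.1 over 3 pairs, which held for myofibroblast with fibroblast cultures (0.623, 0.682 and 0.533). The fit was tested on simulated data. Positions and upstream sequences came from RefSeq (GRCm38.p6). Left-out arrays, added constants, filters, normalizations and blocks were the alternatives.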

Additional observations from a re-analysis of the deposited data

How the results depend on the processing

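Of 884 alternative values for the 40 member differences, 852 kept direction and side of the threshold, 12 lost a call, 20 gained 1 and 0 turned direction, and the cause of these changes was not tested. With an added constant of 1, Vcan differed by 3.50 for fibroblast culture minus adult stroma (called) and by 3.97 for keratocyte culture minus P10 stroma (no longer called), and 83 probe sets were called between fibroblast and keratocyte cultures. For adult minus P10 stroma, Dcn was called with a constant of 64 (-0.47), a filter at 100 (-0.48) and quantile normalization (-0.47), and Bgn 162347_f_at with quantile normalization (-0.77). Quantile normalization also gave calls for Bgn 96049_at, myofibroblast minus keratocyte culture (0.41), and Bgn 162347_f_at, myofibroblast minus fibroblast culture (0.79).

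Called probe sets numbered 385 for adult minus P10 stroma, 142 for fibroblast minus keratocyte, 111 for myofibroblast minus fibroblast and 620 for myofibroblast minus keratocyte culture, and 1600, 1868 and 2230 for keratocyte, fibroblast and myofibroblast culture minus P10. With only the compared groups in the fit, and so fewer samples, they were 225 for adult minus P10, 46 for fibroblast minus keratocyte, 16 for myofibroblast minus fibroblast and 2552 for keratocyte culture minus P10. With the replicate block over all groups they were 628, 214 and 173 for the first 3 of these and 1007 for myofibroblast minus keratocyte. The same block gave calls for Bgn 162347_f_at (-0.83) and Dcn (-0.51) in adult minus P10 and for Vcan (1.62) in fibroblast culture minus adult stroma, although same-number arrays of these groups did not all deviate together. With the replicate block for the paired fibroblast and myofibroblast cultures only, 253 were called, with Vcan (1.99) and Bgn 162347_f_at (0.74) among them, and no other member call changed.

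Leaving out single arrays gave 117 to 495 calls for adult minus P10, 20 to 171 for fibroblast minus keratocyte, 298 to 694 for myofibroblast minus keratocyte, 61 to 151 for myofibroblast minus fibroblast, and 867 to 1789, 916 to 2145 and 1141 to 2525 for keratocyte, fibroblast and myofibroblast culture minus P10. The last 3 and the first were lowest without a P10 array. Log2 differences ran from -0.57 to -0.39 for Dcn and from -0.98 to -0.72 for Bgn 162347_f_at in adult minus P10, from 0.36 to 0.48 for Dcn in myofibroblast culture minus adult stroma, and from 0.72 to 0.96 for Bgn 162347_f_at in myofibroblast minus keratocyte culture. For Vcan they ran from 1.15 to 2.42 in fibroblast culture minus adult stroma, and from 1.58 to 3.05, 0.14 to 1.69 and 2.13 to 3.60 in keratocyte, fibroblast and myofibroblast culture minus P10. Named list genes kept direction in all of 1522 alternative values and lost their call in 70, and 127 of 1860 list counts moved by over 1.5 times. Signals of Vcan lie at the background level, so the size of its differences depends on the added constant. A P10 group of 2 arrays limits every comparison with it.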
